A study of Arabidopsis thaliana with 24 samples.

Results

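The genes described here build the core of the aliphatic glucosinolates, the methionine-derived sulphur compounds of Arabidopsis leaves, and include the principal MYB factors that switch those genes on. The set was defined by 10 locus identifiers. The table of 20514 loci holds 7 of them, namely BCAT4 (AT3G19710), IIL1 (AT4G13430), CYP83A1 (AT4G13770), UGT74C1 (AT2G31790), SOT18 (AT1G74090), MYB28 (AT5G61420) and MYB29 (AT5G07690). All 7 lay above the intensity filter and were tested. IMD1 (AT5G14200), CYP79F1 (AT1G16410) and CYP79F2 (AT1G16400) were not analysed here, so the dehydrogenase of chain elongation and the enzymes that commit elongated methionine to glucosinolates have no value below.

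Expression was measured on arrays of rosette leaf RNA from the Arabidopsis thaliana accessions Kas-1 and Tsu-1, which are natural inbred lines. Plants grew one to a pot under a 10 h photoperiod at 23 °C by day and 18 °C by night, and the soil was either kept wet, with about 90% of the pot water remaining, or dried slowly to about 50% remaining on day 5. The 4 groups are therefore Kas-1 wet, Kas-1 dry, Tsu-1 wet and Tsu-1 dry, with 6 arrays each, and the labels name no transgene or mutation in any of them. The design text names 3 biological replicates per combination for these 6 arrays, so some arrays may share plants or RNA, and all errors below are between arrays.

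Aliphatic glucosinolate synthesis begins with chain elongation, in which methionine loses its amino group and the resulting keto acid is lengthened in the chloroplast. The elongated amino acid then passes through the core pathway, in which it is oxidised, joined to sulphur, given a glucose and finally sulphated, and its side chain can be altered afterwards. MYB28 and MYB29 activate most genes of this route, and the products deter insects when myrosinases cut them after tissue damage.

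Values are log2 expression values as deposited, so a difference of 1 is a 2-fold change. Each array's median lay between 6.77 and 6.87, and the lower quartile of all locus means was 5.21. Correlations between arrays of 1 group ran from 0.872 to 0.995. The highest was between Kas-1 dry arrays 4 and 5. Quality weights fitted by limma fell under 0.5 for 4 arrays. They were arrays 1 and 2 of Kas-1 dry together with arrays 7 and 9 of Tsu-1 wet, and calls lost and directions turned without them are given beside the results. Leaf markers were high throughout, with group means from 13.2 to 13.6 for LHCA1 and RCA, both of photosynthesis. All 5 flower markers and all 4 trichome markers in the table were under the filter of 6.19, and of the 5 root markers only SCR and NRT2:1 were above it. Probes of a gene family can bind each other's RNA, which bears on MYB28 and MYB29 and on SOT17 and SOT18, and their specificity was not tested.

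The first comparison asked whether the accessions differ in these genes, with wet and dry soil averaged. CYP83A1, UGT74C1, SOT18 and MYB28 were higher in Tsu-1, by 1.19-fold to 1.42-fold, while BCAT4, IIL1 and MYB29 did not pass the test. These 4 of 7 stand against 47.7% of all 12308 tested loci that differed in either direction at an adjusted p under 0.05, and 23.3% that were higher in Tsu-1. The median difference of the 7 genes was 0.34 on the log2 scale, and that of all tested loci was 0.00386. All 3 core pathway genes passed, as did 1 of the 2 regulators and neither of the 2 chain elongation genes. In whole leaves, fewer cells of a type and less RNA per cell cannot be told apart.

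**Figure D1:**
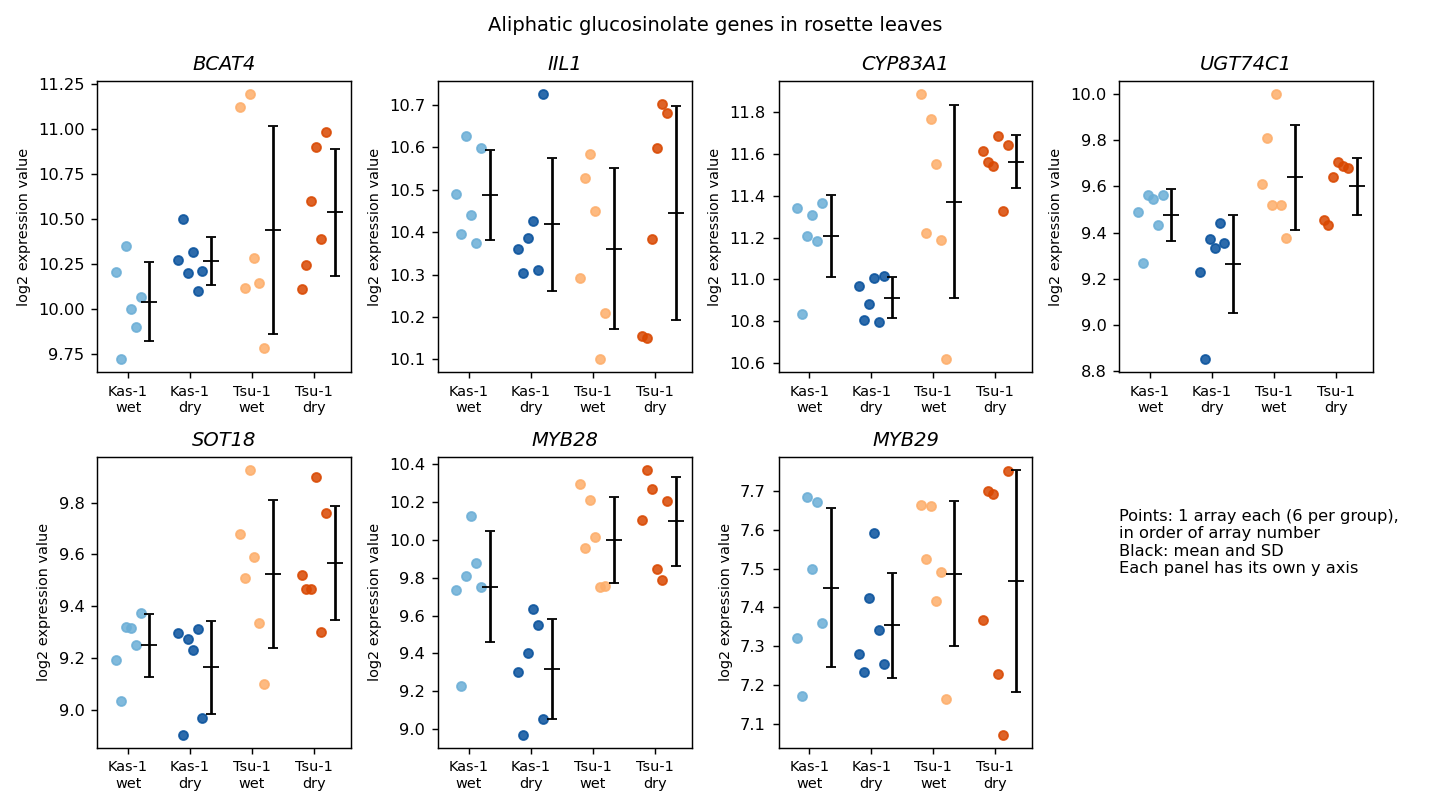
Log2 expression of the 7 genes on each of the 24 arrays, as points by group, with group means and SDs. For MYB28 and CYP83A1 every Tsu-1 dry array lies above every Kas-1 dry array, whereas the IIL1 and MYB29 groups overlap.

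Among the regulators, MYB28, the main activator of the route, ran from 9.23 through a median of 9.78 to 10.12 in Kas-1 wet and from 8.97 through 9.35 to 9.63 in Kas-1 dry. It ran from 9.75 through 9.99 to 10.30 in Tsu-1 wet and from 9.79 through 10.15 to 10.37 in Tsu-1 dry. The wet groups overlapped, and the dry groups were separate. Over both soils MYB28 was higher in Tsu-1 by 0.51 (SE 0.10, limma adjusted p = 0.000311), a 1.42-fold difference.

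MYB29, its close relative, had group means from 7.35 to 7.49. Its values ran from 7.17 to 7.68 in Kas-1 wet, 7.23 to 7.59 in Kas-1 dry, 7.16 to 7.66 in Tsu-1 wet and 7.07 to 7.75 in Tsu-1 dry, so all groups overlapped. The accession difference was 0.07 (SE 0.08, adjusted p = 0.484), with a 95% interval from -0.10 to 0.25.

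BCAT4, the aminotransferase that takes methionine into chain elongation, ran from 9.72 through a median of 10.03 to 10.35 in Kas-1 wet and from 10.10 through 10.24 to 10.50 in Kas-1 dry. In Tsu-1 it ran from 9.78 through 10.21 to 11.19 in wet soil and from 10.11 through 10.49 to 10.98 in dry soil. The 2 highest values were Tsu-1 wet 7 and 9, both of low weight, at 11.12 and 11.19. The accession difference was 0.34 (SE 0.14, adjusted p = 0.0538), and it was 0.19 (adjusted p = 0.168) without the 4 low-weight arrays.

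IIL1, the large subunit of the isomerase that acts in chain elongation and in leucine synthesis, varied little between groups. Its medians were 10.47 in Kas-1 wet, 10.37 in Kas-1 dry, 10.37 in Tsu-1 wet and 10.49 in Tsu-1 dry, and its values ran from 10.10 to 10.73 over all arrays. The accession difference was -0.05 (SE 0.08, adjusted p = 0.619).

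In the core pathway, CYP83A1, the cytochrome P450 that oxidises the aldoximes, ran from 10.84 through a median of 11.26 to 11.36 in Kas-1 wet and from 10.80 through 10.93 to 11.02 in Kas-1 dry. It ran from 10.62 through 11.39 to 11.88 in Tsu-1 wet and from 11.33 through 11.59 to 11.69 in Tsu-1 dry. Tsu-1 wet spanned the whole Kas-1 wet range, and its SD of 0.46 was above the 0.10 to 0.20 of the other groups. CYP83A1 was higher in Tsu-1 by 0.41 (SE 0.10, adjusted p = 0.00284), or 1.33-fold.

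UGT74C1, a glucosyltransferase assigned to the glucose step, had medians of 9.52 in Kas-1 wet, 9.34 in Kas-1 dry, 9.57 in Tsu-1 wet and 9.66 in Tsu-1 dry. Its ranges were 9.27 to 9.56, 8.85 to 9.44, 9.38 to 10.00 and 9.43 to 9.71 in the same order, so neighbouring groups overlapped. It was higher in Tsu-1 by 0.25 (SE 0.07, adjusted p = 0.00793).

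SOT18, which adds the final sulphate, had medians of 9.28 in Kas-1 wet, 9.25 in Kas-1 dry, 9.55 in Tsu-1 wet and 9.49 in Tsu-1 dry. Its ranges were 9.03 to 9.37, 8.90 to 9.31, 9.10 to 9.93 and 9.30 to 9.90. It was higher in Tsu-1 by 0.34 (SE 0.09, adjusted p = 0.0024), and each Tsu-1 median was above every Kas-1 array of either soil.

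Within dry soil alone, the same 4 genes, MYB28, CYP83A1, SOT18 and UGT74C1, were higher in Tsu-1, and all 7 differences were positive. In this comparison 30.5% of tested loci differed in either direction and 16.8% were higher in Tsu-1. MYB28 was 1.71-fold higher, a difference of 0.78 (SE 0.14, adjusted p = 0.00033, 95% interval 0.48 to 1.08). CYP83A1 was 1.57-fold higher, at 0.65 (SE 0.15, adjusted p = 0.0022). SOT18 was higher by 0.40 (SE 0.12, adjusted p = 0.0148) and UGT74C1 by 0.34 (SE 0.10, adjusted p = 0.0183).

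For MYB28 and CYP83A1 all 6 Tsu-1 dry arrays lay above all 6 Kas-1 dry arrays, a separation that 7.33% of tested loci showed in that direction. For SOT18 and UGT74C1, 5 of 6 Tsu-1 dry arrays did so, a count whose share over all tested loci was not computed. Kas-1 dry 2, an array of low weight, was the lowest of its group for MYB28, SOT18 and UGT74C1. Without the 4 low-weight arrays UGT74C1 differed by 0.23 (adjusted p = 0.0827) and no longer passed. BCAT4 (0.27, adjusted p = 0.321), MYB29 (0.11, adjusted p = 0.499) and IIL1 (0.03, and -0.017 without those arrays) did not pass either.

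In wet soil none of the 7 passed, where 30.1% of tested loci did. SOT18 came nearest at 0.28 (SE 0.12, adjusted p = 0.0874) and was the only 1 of the 7 with an unadjusted p under 0.05. Among all 12308 tested loci, 5140 had an unadjusted p under 0.05 in wet soil. MYB28 differed by 0.24 (SE 0.14, adjusted p = 0.203, 95% interval -0.05 to 0.54) and CYP83A1 by 0.17 (SE 0.15, adjusted p = 0.417, 95% interval -0.14 to 0.47). Tsu-1 wet 12 was the lowest Tsu-1 wet array for BCAT4, CYP83A1, UGT74C1, SOT18 and MYB29. Without it BCAT4 differed by 0.53 (adjusted p = 0.0469) and SOT18 by 0.36 (adjusted p = 0.0261), and both passed. Tsu-1 wet 12 had the highest weight of its group, 2.21, where the other arrays had 0.31 to 0.81. Under the settings other than leaving out 1 array none of the 7 passed, and BCAT4 went as low as 0.04 and SOT18 as low as 0.09. Without the 4 low-weight arrays the CYP83A1 difference was -0.06, so its direction in wet soil rests on Tsu-1 wet 7 and 9. That of MYB29 turned too, from 0.04 to -0.052.

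**Figure D2:**
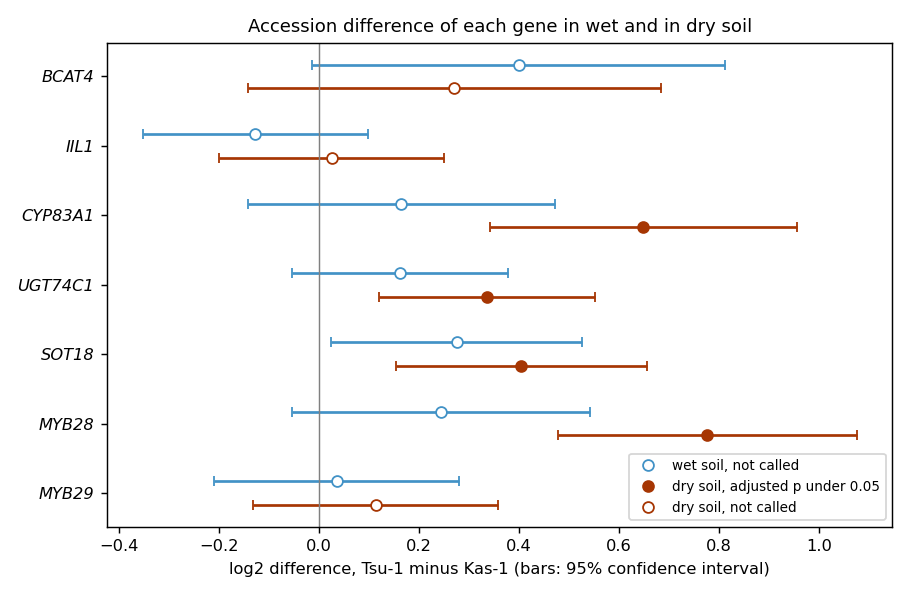
Difference between Tsu-1 and Kas-1 (log2) for the 7 genes in wet and in dry soil, with 95% intervals from the limma fit of 24 arrays. In dry soil the intervals of MYB28, CYP83A1, SOT18 and UGT74C1 exclude 0, and in wet soil only that of SOT18 does, before adjustment.

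The second comparison asked how mild soil drying changed the leaves. None of the 7 genes passed for dry against wet soil averaged over the accessions, where 0.13% of tested loci did. Their differences ran from -0.17 for MYB28 (adjusted p = 0.643) to 0.16 for BCAT4 (adjusted p = 0.791), and no unadjusted p was under 0.05. Without the 4 low-weight arrays CYP83A1, SOT18 and MYB29, at -0.05, -0.02 and -0.06 in the full data, turned to 0.068, 0.066 and 0.011.

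Within Kas-1, where 0.0731% of loci passed, MYB28 had the lowest p of the 7. Its mean was 9.75 ± 0.29 (SD, n = 6) in wet and 9.32 ± 0.26 in dry soil. The difference was -0.43 (SE 0.14, 95% interval -0.73 to -0.14), with an unadjusted p of 0.0063 from limma and an adjusted p of 0.267. In this comparison 1311 of 12308 tested loci had an unadjusted p under 0.05. CYP83A1 had a mean of 11.21 ± 0.20 in wet soil and of 10.91 ± 0.10 in dry soil, a difference of -0.29 (adjusted p = 0.493). UGT74C1 differed by -0.21 (adjusted p = 0.479). The other 4 genes differed by -0.10 to 0.23. Under the settings other than leaving out 1 array, MYB28 ran from -0.49 to -0.34, CYP83A1 from -0.31 to -0.27 and UGT74C1 from -0.24 to -0.10. Kas-1 dry 2, of low weight, was the lowest Kas-1 dry array for MYB28 and UGT74C1.

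Within Tsu-1, where 0.00812% of loci passed, the 7 differences ran from -0.04 for UGT74C1 to 0.19 for CYP83A1, and none had an unadjusted p under 0.05. MYB28 differed by 0.10 (SE 0.14, 95% interval -0.20 to 0.40) and SOT18 by 0.04 (SE 0.12). These sizes depended on the arrays: leaving out 1 array at a time moved CYP83A1 between 0.040 and 0.29 and BCAT4 between -0.033 and 0.25. CYP83A1 reached 0.48 with array weights, BCAT4 reached 0.46 without the 4 low-weight arrays, and MYB29 turned from -0.02 to 0.069 without them.

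The interaction, which sets the drying response of Tsu-1 against that of Kas-1, tests whether the accession gap itself differed between the soils. No tested locus passed, so the background was 0%, and 722 loci had an unadjusted p under 0.05. Of the 7 genes, MYB28 (0.53, SE 0.20, 95% interval 0.11 to 0.95, unadjusted p from limma 0.0156, adjusted p = 0.674) and CYP83A1 (0.48, SE 0.21, 95% interval 0.05 to 0.92, unadjusted p 0.0303, adjusted p = 0.77) were among them. The larger accession gap of both genes in dry soil is therefore not shown to differ from that in wet soil. The median of the 7 interaction values was 0.15, beside 0.04 over all tested loci, and BCAT4 alone was below 0, at -0.13, though it was 0.29 without the 4 low-weight arrays.

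The rest of the aliphatic route was described from lists of 31 other genes. The table holds 28 of these, and 25 lay above the filter. Averaged over the soils, 11 of the 25 were higher in Tsu-1 and 2 were lower, with a median of 0.32, where 47.7% of all tested loci differed and 23.3% were higher in Tsu-1. These 11 include FMO GS-OX4 and MYC4, whose Kas-1 means were under the filter, so both entered the test only through their Tsu-1 values. In dry soil 10 were higher and 1 was lower, with a median of 0.40, where 30.5% differed and 16.8% were higher. In wet soil 3 were higher and 2 lower, with a median of 0.14, where 30.1% differed. The counts in either direction are thus near those shares in the average and below them in wet soil. None passed for drying or for the interaction. MAM1, IMD3 and AOP3 were not analysed here, and FMO GS-OX2, AT2G25450 and MYB76 were below the filter.

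**Figure D3:**
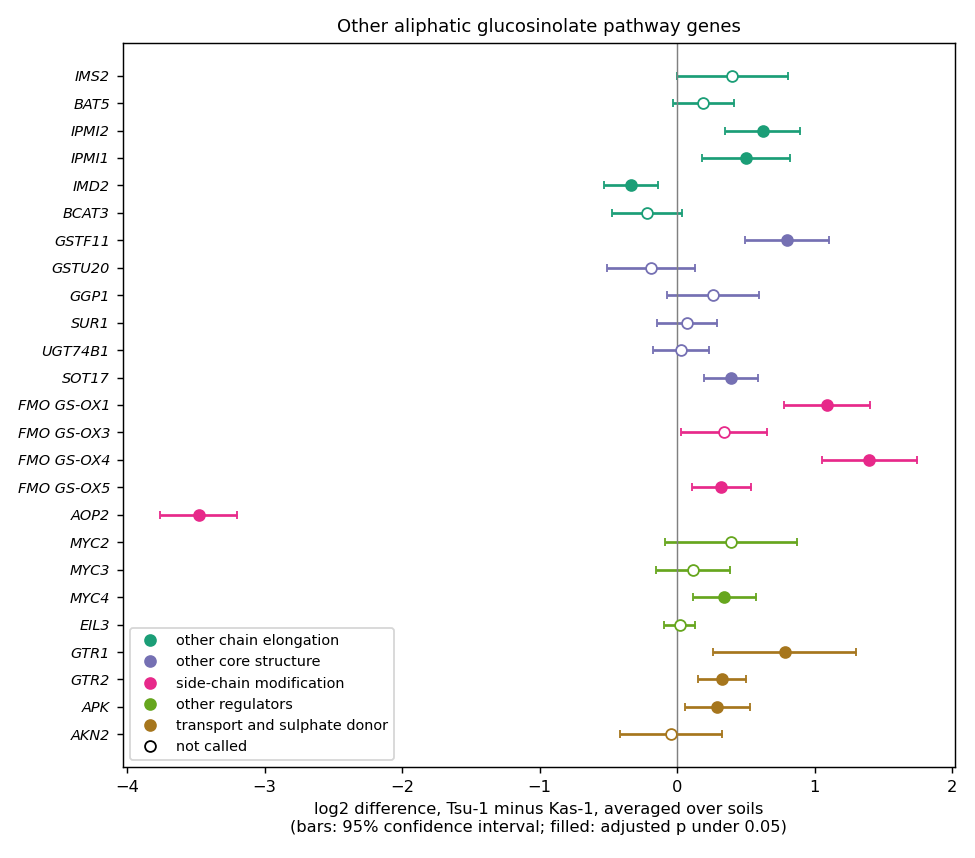
Difference between Tsu-1 and Kas-1 (log2), averaged over the soils, for the 25 other tested genes of the aliphatic route, coloured by list, with 95% intervals from the limma fit of 24 arrays and filled points where the adjusted p was under 0.05. AOP2 lies farthest to the left at -3.48, and FMO GS-OX4 at 1.40 lies farthest in the other direction.

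In chain elongation, the small isomerase subunits IPMI2 (0.62, SE 0.13, adjusted p = 0.000602) and IPMI1 (0.50, SE 0.16, adjusted p = 0.0108) were higher in Tsu-1. IMD2, an isopropylmalate dehydrogenase of leucine synthesis, was lower, at -0.34 (SE 0.09, adjusted p = 0.00552). The synthase gene IMS2, the keto acid transporter gene BAT5 and the aminotransferase gene BCAT3 did not pass. In dry soil IPMI1 (0.87), IPMI2 (0.84) and BAT5 (0.43, adjusted p = 0.0311) were higher in Tsu-1. IPMI2 had medians of 8.29 in Kas-1 wet, 8.01 in Kas-1 dry, 8.70 in Tsu-1 wet and 8.80 in Tsu-1 dry. Its lowest Tsu-1 dry array, at 8.54, was above its highest Kas-1 dry array, at 8.24, a separation that 7.33% of tested loci showed.

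In the core pathway, 2 of 6 other genes were higher in Tsu-1 and none was lower. GSTF11, a glutathione S-transferase assigned to the step that brings in sulphur, was higher by 0.80 (SE 0.15, adjusted p = 0.000144), and in dry soil by 1.06, or 2.09-fold (adjusted p = 0.000577). SOT17, the sister sulphotransferase of SOT18, was higher by 0.40 (SE 0.10, adjusted p = 0.00169). GSTU20, GGP1, SUR1 and UGT74B1 did not pass. SUR1 and UGT74B1 also serve the indole glucosinolates, and their differences were 0.07 and 0.03.

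Side-chain genes held the 3 largest differences among the 25. AOP2, which makes alkenyl side chains, ran from 9.25 to 10.25 in Kas-1 wet, 10.09 to 11.44 in Kas-1 dry, 6.58 to 7.003 in Tsu-1 wet and 6.35 to 6.995 in Tsu-1 dry, so the accessions were far apart in both soils. It was 8.27-fold lower in Tsu-1 in wet soil and 15.0-fold lower in dry soil, against the direction of the core genes. The S-oxygenase genes FMO GS-OX4 (1.40, SE 0.17, adjusted p = 5.76e-07), FMO GS-OX1 (1.09, SE 0.15, adjusted p = 4.07e-06) and FMO GS-OX5 (0.32, SE 0.10, adjusted p = 0.0138) were higher in Tsu-1. FMO GS-OX4 had means under the filter in both Kas-1 groups, 5.86 ± 0.26 in wet and 5.76 ± 0.16 in dry soil, against 7.29 ± 0.79 and 7.12 ± 0.20 in Tsu-1. Whether a sequence difference between the accessions under a probe moves any of these values was not tested.

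Of 4 other regulators tested, MYC4, a jasmonate-pathway factor that works with the MYB proteins, was higher in Tsu-1 by 0.34 (SE 0.11, adjusted p = 0.0138), and MYC2, MYC3 and EIL3 did not pass. The Kas-1 means of MYC4, 6.11 in wet and 5.96 in dry soil, were under the filter, against 6.29 and 6.47 in Tsu-1. It thus entered the test only through its Tsu-1 values, and its call is descriptive. Of the 4 transport and sulphate donor genes, the glucosinolate importer genes GTR1 (0.78, SE 0.25, adjusted p = 0.0129) and GTR2 (0.33, SE 0.09, adjusted p = 0.00314) and the sulphate-activating kinase gene APK (0.29, SE 0.11, adjusted p = 0.0391) were higher in Tsu-1.

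The indole branch, which starts from tryptophan and has its own P450s, sulphotransferase and MYB factors, had 5 tested genes. None passed as higher in Tsu-1. Over both soils 1 was lower, where 47.7% of all tested loci differed, and in dry soil 1 was lower, where 30.5% differed. SOT16, its sulphotransferase, was lower by 0.46 (SE 0.18, adjusted p = 0.038) over both soils, and MYB51, its leaf regulator, fell short over both soils (-0.46, adjusted p = 0.0746) and was lower in dry soil by 0.86 on the log2 scale (a difference of -0.86, adjusted p = 0.0294). CYP79B2, CYP79B3 and CYP83B1 did not pass. CYP79B3 went the other way, with means of 7.97 in Tsu-1 wet and 8.35 in Tsu-1 dry against 7.88 and 7.86 in Kas-1. Over both soils the median of the 5 was -0.42, beside 0.34 for the 7 aliphatic genes.

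Some markers of other cells and states also differed between the accessions, where 47.7% of all tested loci did over both soils, 30.1% in wet soil and 30.5% in dry soil. Of 7 tested vascular markers 4 were higher in Tsu-1 in wet soil, in dry soil and in the average, namely the sugar transporter genes SUC2 (0.74) and SWEET11 (0.66), the phloem factor APL (0.59) and the sulphate transporter gene SULTR2;1 (0.45), while SWEET12, HB-8 and PXY did not pass and XCP1 was below the filter. The mean of the 8 vascular markers in the table ran from 8.46 to 8.86 in Kas-1 wet, 8.63 to 8.80 in Kas-1 dry, 8.82 to 9.15 in Tsu-1 wet and 8.92 to 9.23 in Tsu-1 dry. The accessions were thus separate on this mean in dry soil and overlapped slightly in wet soil. Of single tested loci, 7.33% were separate in dry soil in that direction. Of 5 tested jasmonate genes LOX2 (1.46) and AOS (0.77), both of jasmonate synthesis, were higher in Tsu-1, JAZ1 (0.71), JAZ5 (0.92) and JAZ10 (-0.54) did not pass, and the array means of the 5 ran from 7.56 to 9.46 in Kas-1 wet, 8.47 to 9.92 in Kas-1 dry, 8.01 to 10.41 in Tsu-1 wet and 9.14 to 10.06 in Tsu-1 dry. LOX2 was also higher in dry than in wet soil over both accessions, by 1.01 (adjusted p = 0.0333).

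Of 9 touch and handling genes CBF2 (0.79) and RHL41 (0.45) were higher in Tsu-1, and the array means of the 9 ran from 9.89 to 11.22 in Kas-1 wet, 10.50 to 11.34 in Kas-1 dry, 9.74 to 11.80 in Tsu-1 wet and 10.92 to 11.20 in Tsu-1 dry. Of 4 tested leaf mesophyll markers CA1 was lower in Tsu-1 (-0.56, adjusted p = 0.0172), while GLDP1 (0.20), LHCA1 (0.03) and RCA (-0.03) did not pass. Of 2 tested guard cell markers FMA was lower (-0.27, adjusted p = 0.00547) and AT1G22690 (0.24) did not pass. Of 2 tested root markers SCR was higher (0.27, adjusted p = 0.00259) and NRT2:1 (0.17) did not pass. The part of these markers in the glucosinolate differences was not tested.

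Within groups, some of the 7 genes varied together from array to array. Each value was set against its group mean, and over the 24 arrays the 21 pairs of genes had a median correlation of 0.46, with 7 pairs, or 33.3%, above 0.5. Among all pairs of tested loci the median was 0.01 and 10.9% were above 0.5. Array quality is common to all genes of an array, some arrays may share RNA, and the values are descriptive. The highest were MYB28 with MYB29 (0.77), BCAT4 with CYP83A1 (0.75), CYP83A1 with SOT18 (0.74) and BCAT4 with SOT18 (0.68). BCAT4, CYP83A1 and SOT18 thus lay together over the 24 arrays pooled. IIL1, the other chain elongation gene, was lower, at 0.28 with CYP83A1, 0.33 with SOT18 and 0.47 with BCAT4. BCAT4, CYP83A1 and SOT18 spread most in Tsu-1 wet (SD 0.58, 0.46 and 0.29), so that group weighed most in the correlations between them. Tsu-1 wet 7 and 9, both of low weight, were the highest arrays of that group for each of these genes. Those correlations were not computed group by group or without the low-weight arrays. The lowest pooled correlations were MYB28 with IIL1 (-0.11), MYB29 with IIL1 (-0.05) and BCAT4 with UGT74C1 (0.10).

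**Figure D4:**
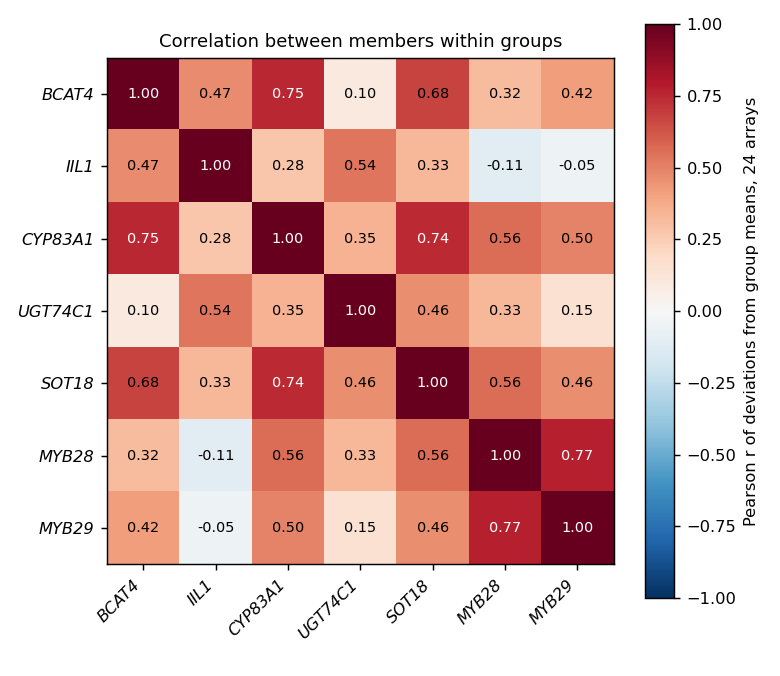
Pearson correlation between each pair of the 7 genes over 24 arrays, after subtracting the group mean of each gene, on a colour scale from -1 to 1. BCAT4, CYP83A1 and SOT18 form 1 block at 0.68 to 0.75, and MYB28 with MYB29 forms another at 0.77. BCAT4, CYP83A1 and SOT18 spread most in Tsu-1 wet, so that group weighs most in their block.

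The leading axis of array-to-array variation within groups held 46.9% of the variance. UGT74C1 followed it at -0.70 and BCAT4 at 0.51, against a median size of 0.52 over all tested loci, while MYB28 (-0.04), MYB29 (0.08) and SOT18 (0.10) hardly did.

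The relation of MYB28 to the other 6 genes was tested by permuting arrays within groups, two-sided, with 100000 permutations and Benjamini-Hochberg adjustment over the 6. All permutation p-values treat the arrays as independent. Some arrays may share plants or RNA, which would make these p-values too small, and no correlation was computed on averaged arrays. MYB29 passed with Pearson's r = 0.77 (permutation p = 1e-05, the smallest these permutations can give, adjusted p = 6e-05) and Spearman's rho = 0.78 (permutation p = 2e-05, adjusted p = 0.00012). Without the 2 arrays farthest from the MYB28 median, Kas-1 wet 8 and Kas-1 dry 2, r was 0.76. Within single groups of 6 it was 0.69 in Kas-1 wet, 0.82 in Kas-1 dry, 0.78 in Tsu-1 wet and 0.94 in Tsu-1 dry, with exact permutation p-values of 0.1125, 0.0333, 0.0514 and 0.00694.

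SOT18 gave r = 0.56 (permutation p = 0.00519, adjusted p = 0.0104) and rho = 0.53 (permutation p = 0.0133, adjusted p = 0.0398). CYP83A1 gave r = 0.56 (permutation p = 0.00248, adjusted p = 0.00744) and rho = 0.42 (permutation p = 0.0473, adjusted p = 0.0946). Without the same 2 arrays these fell to r = 0.47 (permutation, adjusted p = 0.0994) and r = 0.48 (permutation, adjusted p = 0.0771), and neither passed. Without the 4 low-weight arrays they were 0.42 (permutation, adjusted p = 0.1301) and 0.43 (permutation, adjusted p = 0.1177), and again neither passed. By group, MYB28 and CYP83A1 gave r = 0.79 in Kas-1 wet and 0.07 in Kas-1 dry. They gave 0.90 in Tsu-1 wet and 0.32 in Tsu-1 dry. The exact permutation p-values, unadjusted, were 0.0986, 0.893, 0.0111 and 0.599 in the same order. Spearman's rho was 0.09, -0.03, 0.94 and -0.03, so the high r in Kas-1 wet was not matched by rank. MYB28 and SOT18 gave r = 0.80, 0.85, 0.88 and -0.10 (exact permutation p = 0.0833, 0.0528, 0.0222 and 0.842). Their rho was 0.49, 0.60, 0.89 and -0.03. BCAT4 (r = 0.32, rho = 0.27), UGT74C1 (r = 0.33, rho = 0.11) and IIL1 (r = -0.11, rho = -0.12) did not pass, with permutation p-values for r of 0.1295, 0.1303 and 0.6193.

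**Figure D5:**
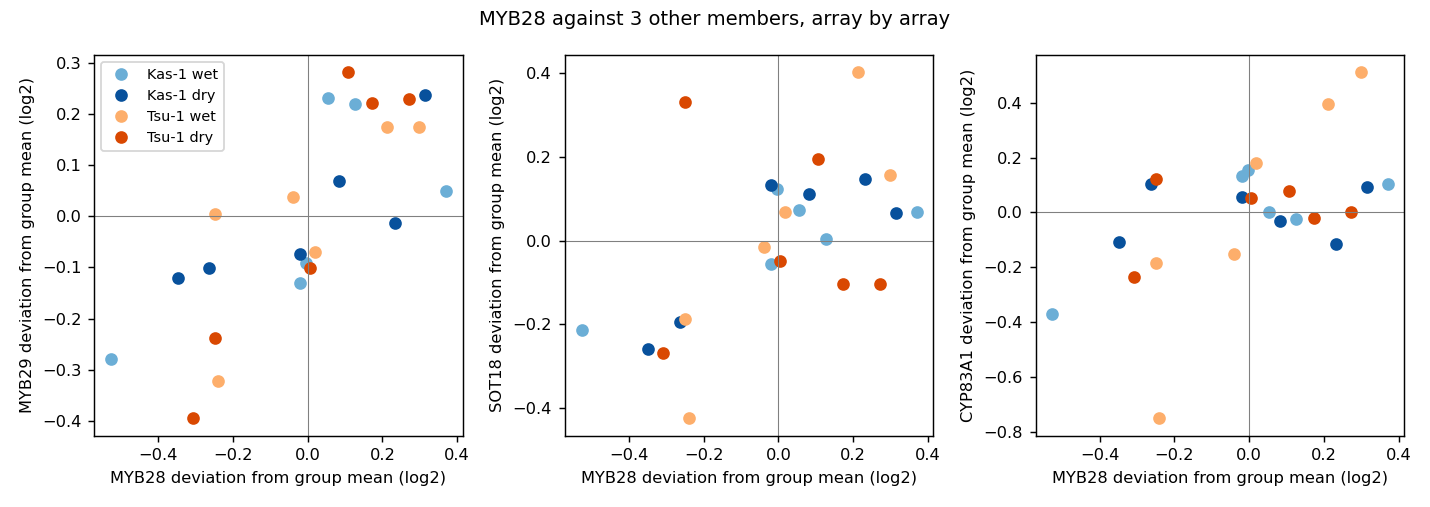
Deviation of MYB29, SOT18 and CYP83A1 from their group means (log2) against that of MYB28, 1 point per array and coloured by group, 24 arrays in each panel. MYB29 rises with MYB28 in every group. SOT18 and CYP83A1 follow MYB28 closely in Tsu-1 wet (Pearson's r 0.88 and 0.90), whereas in Tsu-1 dry SOT18 does not (-0.10). There CYP83A1 does so weakly by r (0.32) and not by Spearman's rho (-0.03). By r, CYP83A1 is lowest in Kas-1 dry, at 0.07. In Kas-1 wet its r is 0.79 but its rho only 0.09.

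The loci most like the 5 synthesis genes were found by correlating each tested locus outside the set with their mean deviation over the 24 arrays, as a description without a test. The 10 highest were IPMI2 (0.87), AT1G21440 (0.86), FMO GS-OX3 (0.86), IPMI1 (0.84), AT5G23590 (0.80), AK-HSDH I (0.79), GSTF11 (0.77), AT2G20330 (0.72), PHS1 (0.72) and BAT5 (0.71). IPMI2, IPMI1, FMO GS-OX3, GSTF11 and BAT5, 5 of the 10, come from the lists of the aliphatic route. AK-HSDH I encodes an aspartate kinase and homoserine dehydrogenase of the amino acid pathway that leads to methionine. Over the lists, 9 of 25 genes, or 36.0%, had a correlation above 0.5, as had 0 of 5 indole genes, whose median was -0.15. Of all 12301 tested loci outside the set, these lists included, 264 did, or 2.15%.

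The order depended on group and array. IPMI1, AK-HSDH I and GSTF11 had correlations of at least 0.737 in all 4 groups, whereas IPMI2 was at -0.03 and AT5G23590 at -0.46 in Kas-1 dry. Without the 4 low-weight arrays the 10 correlations ran from 0.60 for PHS1 to 0.90 for IPMI1. MYB28 and MYB29 correlated with the same mean at 0.45 and 0.43, and at 0.24 and 0.29 without those arrays.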

How the data were processed

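The deposited values are on a log2 scale, as read from their range (3.12 to 14.2), with 1 value for each locus on each array. Leaves were kept in RNAlater and RNA was labelled as biotinylated cRNA, per the labels' protocols. Per the submitters' processing notes the tool was MAS5, with no version or role, so background correction, probe summary and normalisation are not given in the sources used here. Names came from RefSeq (TAIR10.1), to which 20290 of 20514 loci matched.

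The 12308 loci whose mean exceeded the 40th percentile (6.19) entered the tests. With limma 3.58.1 in R 4.3.3, all 24 arrays were fitted together as 4 groups with an intensity trend, and the two-sided p-values of each comparison received a Benjamini-Hochberg adjustment over these loci. Correlations used Python 3.11.15 with numpy 2.4.6 and scipy 1.17.1. The number of arrays limits the precision. Same-numbered arrays of the accessions had deviations correlated from -0.40 to 0.55, with 4 of 12 pairs above 0.1, so the numbers were not taken as pairs.

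The members, lists and tests were chosen with earlier results of these data known. All 10 members were to be named, with called genes of the route and the 10 loci most like the synthesis genes. The fit was tested on simulated data. A motif search was not run, as no sequence was used here. Alternatives were quantile normalisation, median centring, other filters, no trend, array weights, arrays averaged to 3 per group, a replicate block, single arrays left out and, chosen after seeing the data, leaving out the 4 low-weight arrays or averaging Kas-1 dry 4 and 5.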

Additional observations from a re-analysis of the deposited data

Results flagged for a closer look

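In 28 sets of 6 arrays (7 genes in 4 groups), 3 values stood apart from their group by Dixon's test at its 95% level, where chance flags about 1 in 20 sets. IIL1 was 10.73 in Kas-1 dry 6, where the other 5 arrays ran from 10.30 to 10.43. CYP83A1 was 10.84 in Kas-1 wet 8, where the others ran from 11.18 to 11.36. UGT74C1 was 8.854 in Kas-1 dry 2, where the others ran from 9.23 to 9.44. Kas-1 wet 8 was also the lowest Kas-1 wet array for MYB28, at 9.23, and for BCAT4, SOT18 and MYB29. Kas-1 dry 2 is 1 of the 4 arrays of low weight.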

How the results depend on the processing

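Of 1715 member values recomputed under alternatives, 1657 kept their direction and side of the threshold, 2 lost and 13 gained a call, and 43 reversed, none of them called in either fit. The 4 calls in dry soil stood in every fit that left out 1 array, whereas the averaged accession comparison gave 4 to 5 calls, wet soil 0 to 2, and drying and the interaction 0. BCAT4 passed over both soils with quantile normalisation (0.35, adjusted p = 0.0442), with arrays n and n+3 averaged (0.34, adjusted p = 0.0263), and in 7 fits without 1 array, Kas-1 dry 2, Kas-1 wet 9, Tsu-1 dry 1 or 2, or Tsu-1 wet 8, 11 or 12 (adjusted p from 0.0178 to 0.0446). With the replicate number as a block, BCAT4 also passed (0.34, adjusted p = 0.0283), which made 5 calls over both soils, 4 in dry soil and 0 in wet soil. UGT74C1 in dry soil lost its call with consecutive arrays averaged to 3 per group (adjusted p = 0.0645) and without the low-weight arrays.

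With array weights 1 member, MYB28, passed for drying in Kas-1 (-0.38, adjusted p = 0.0499), where 1003 loci passed in place of 9. Over the settings other than leaving out 1 array, loci passing ran from 5 to 102 for averaged drying (16 as reported), 0 to 45 for Tsu-1 drying (1) and 0 to 353 for the interaction (0), the last without the low-weight arrays. The causes were not tested. Correlations of MYB28 that passed fell from 3 to 1 without the 2 farthest arrays and to 1 without the low-weight arrays, where CYP83A1 gave 0.43 and SOT18 0.42.

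Reversed with array weights were MYB29 over both soils (-0.028) and in wet soil (-0.13), CYP83A1 in wet soil (-0.14), CYP83A1 (0.086), SOT18 (0.078) and MYB29 (0.010) for averaged drying, UGT74C1 (0.016) and MYB29 (0.11) for Tsu-1 drying, and the BCAT4 interaction (0.17). Reversed without the low-weight arrays were CYP83A1 (-0.061) and MYB29 (-0.052) in wet soil, IIL1 in dry soil (-0.017), CYP83A1 (0.068), SOT18 (0.066) and MYB29 (0.011) for averaged drying, MYB29 for Tsu-1 drying (0.069) and the BCAT4 interaction (0.29). Leaving out 1 array turned values near 0: MYB29 in wet soil (-0.020 to 0.10), IIL1 in dry soil (-0.025 to 0.087), IIL1 (-0.023 to 0.037) and SOT18 (-0.063 to 0.020) for averaged drying, BCAT4 (-0.033 to 0.25), UGT74C1 (-0.092 to 0.033), SOT18 (-0.041 to 0.13) and MYB29 (-0.083 to 0.061) for Tsu-1 drying, and the BCAT4 interaction (-0.26 to 0.022).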

Other observations

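Genes that respond to low sulphur, the element that every glucosinolate carries, gave 1 call among 5 tested of 9 listed. Of all tested loci 47.7% differed over both soils, 30.1% in wet soil and 30.5% in dry soil, so the count is below those shares. LSU2, a gene induced by sulphur limitation, had means of 6.63 ± 0.49 (SD, n = 6) in Kas-1 wet, 6.24 ± 0.45 in Kas-1 dry, 7.33 ± 0.39 in Tsu-1 wet and 7.08 ± 0.29 in Tsu-1 dry. It was higher in Tsu-1 by 0.76 over both soils (SE 0.16, limma adjusted p = 0.000415), by 0.69 in wet soil (adjusted p = 0.0222) and by 0.83 in dry soil (adjusted p = 0.00706). AT1G04770 (0.27) and the sulphate reduction genes APR1 (0.33), APR2 (-0.08) and APR3 (0.26) did not pass.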
